A study of Mus musculus with 34 samples.

Results

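Ribosome footprints of the mouse hippocampus 10 min after contextual fear conditioning were compared with those of unstimulated controls, over all 11531 genes that the deposited tissue table lists. The comparison holds 6 of the 34 libraries of the series, 3 taken at 10 min and 3 controls, and each 10 min library was paired with the control library of the same replicate number. Conditioned mice of the strain C57BL/6N explored a chamber for 148 s, received a 2 s foot shock and went back to the home cage 30 s later. Control mice, labelled as without stimulus, were of the same strain, and the labels give single caging and daily handling of 3 min for 4 days for all mice. Hippocampi were frozen at the time of collection and lysed with cycloheximide, which holds ribosomes on mRNA, so a footprint is a read from mRNA covered by a ribosome. The sources used here do not say whether the 3 replicates were separate mice, and the p-values below cover the spread among these libraries, part of which may be technical. RNA libraries of the same groups, and footprint libraries taken 5 min, 30 min and 4 h after conditioning, were used where named.

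Immediate-early genes are those that cells switch on within minutes of a stimulus from factors already present, with no need for new protein. In hippocampal neurons, calcium entry and the cAMP, CaMK and MAPK cascades activate CREB and serum response factor at their promoters. One class of these genes encodes transcription factors such as Fos and Npas4, and another encodes effectors that act at synapses or in signalling, such as Arc. Ribosome footprints follow both the amount of an mRNA and how densely ribosomes occupy it.

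The 5 genes that passed the test all belong to these classes, and promoter windows of 4 of them were in the RefSeq promoter table (GRCm38.p6), while Arc is named only. The windows are shown because these genes moved together; they run from 250 bases before to 50 bases after the annotated start, 5′ to 3′ on the strand of the gene. Capitals mark TGACG on either strand, the short core of the cAMP response element (CRE) that CREB binds.
Npas4, chr19:4989922-4990221, minus strand: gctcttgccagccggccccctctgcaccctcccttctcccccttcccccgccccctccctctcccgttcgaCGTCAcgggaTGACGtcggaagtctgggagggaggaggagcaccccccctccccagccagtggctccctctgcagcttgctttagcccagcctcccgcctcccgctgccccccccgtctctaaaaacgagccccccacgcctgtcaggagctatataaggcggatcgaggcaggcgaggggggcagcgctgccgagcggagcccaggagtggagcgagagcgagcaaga
Fos, chr12:85473640-85473939, plus strand: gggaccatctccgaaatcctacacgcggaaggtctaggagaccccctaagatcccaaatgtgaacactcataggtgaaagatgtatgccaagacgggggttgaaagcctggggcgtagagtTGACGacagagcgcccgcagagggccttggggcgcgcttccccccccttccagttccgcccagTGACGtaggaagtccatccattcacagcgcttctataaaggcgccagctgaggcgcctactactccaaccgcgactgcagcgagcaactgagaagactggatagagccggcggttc
Junb, chr8:84978699-84978998, minus strand: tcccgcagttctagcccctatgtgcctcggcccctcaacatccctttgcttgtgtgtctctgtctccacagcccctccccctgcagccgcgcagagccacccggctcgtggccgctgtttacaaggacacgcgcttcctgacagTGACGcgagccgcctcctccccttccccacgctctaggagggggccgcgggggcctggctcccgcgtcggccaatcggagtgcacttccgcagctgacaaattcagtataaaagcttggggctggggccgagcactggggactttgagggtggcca
Btg2, chr1:134079106-134079405, minus strand: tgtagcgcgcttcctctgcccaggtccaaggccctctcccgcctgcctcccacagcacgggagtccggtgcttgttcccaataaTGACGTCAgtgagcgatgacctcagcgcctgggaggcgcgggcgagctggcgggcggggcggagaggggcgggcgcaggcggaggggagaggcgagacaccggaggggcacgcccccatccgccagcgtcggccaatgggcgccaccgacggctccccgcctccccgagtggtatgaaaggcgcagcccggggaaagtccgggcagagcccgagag
Each of the 4 windows held TGACG on one strand or the other, as did 30.9% of the 11290 windows of the same length that matched listed genes by symbol (8723 of the 11531 genes). Counted by gene, the share was 36.3%. The core is not particular to the called genes: a window of Mapk6, which was not called and had lower footprints, held it at -42 to -38. The window of Btg2 held the full palindrome TGACGTCA, made of overlapping cores on opposite strands, at positions -166 to -159, and 3.04% of all windows held it. The window of Fos held cores at -129 to -125 and at -66 to -62, that of Npas4 at -179 to -175 and at -169 to -165 on opposite strands, and that of Junb at -106 to -102. The AP-1 letters TGANTCA (4.77% of windows, both strands) and the CArG box of serum response factor (1.25%, by its name) were not found in these 4 windows. Letters more than 250 bases before the start were not searched, so these absences hold for the windows and not for the whole promoters. A match of letters describes the window and shows no binding.

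The 6 libraries held 17414229 to 27719122 reads on listed genes, with a median gene of 521 to 798 reads and at least 19 reads on every listed gene. Values are the deposited signals, which are reads divided by 1 number per library, and levels are therefore set side by side for the same gene only. Libraries with the same number deviated together and those of number 3 stood apart in choroid plexus genes, which mark the secretory epithelium of the ventricle beside the hippocampus. The transthyretin gene Ttr had a signal of 984, 1370.1 and 146 in the 10 min libraries 1, 2 and 3, against 1535, 1547 and 108 in the controls 1, 2 and 3. Of the markers of the labelled tissue, 12 of 12 for CA1 pyramidal and 14 of 16 for dentate granule cells were listed. So were 17 of 18 choroid plexus markers and 17 of 19 markers of striatum, thalamus and cortex. Every listed gene had reads in all 6 libraries, so being listed does not identify the tissue. Prox1, the identity factor of granule cells, had signals of 3.75, 3.40 and 3.31 at 10 min and 3.30, 3.43 and 3.03 in controls.

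Out of 11531 genes tested, footprints of 5 were called higher at 10 min and those of none were called lower (0.0434% and 0.0%). A call was a Benjamini-Hochberg adjusted p under 0.05 in limma with the replicate number as a block. The 5 called genes were Npas4, Fos, Arc, Junb and Btg2. In all 5, the lowest 10 min library lay above the highest control library, a separation in that direction seen in 1.65% of all genes. Npas4, Fos and Btg2 belong to the 3633 low-signal genes (mean signal under 1 over the 15 tissue footprint libraries), and Arc and Junb to the 7898 genes above that limit. At an unadjusted p under 0.05, 185 genes were higher (1.6%) and 270 were lower (2.34%). Without the replicate block only Npas4 passed, and among the 7898 genes of higher signal tested alone none did, with an adjusted p of 0.0573 for Arc and Junb. Fitted on the 6 libraries alone, with no other time to estimate the spread, 11 genes were higher and 10 lower.

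**Figure D1:**
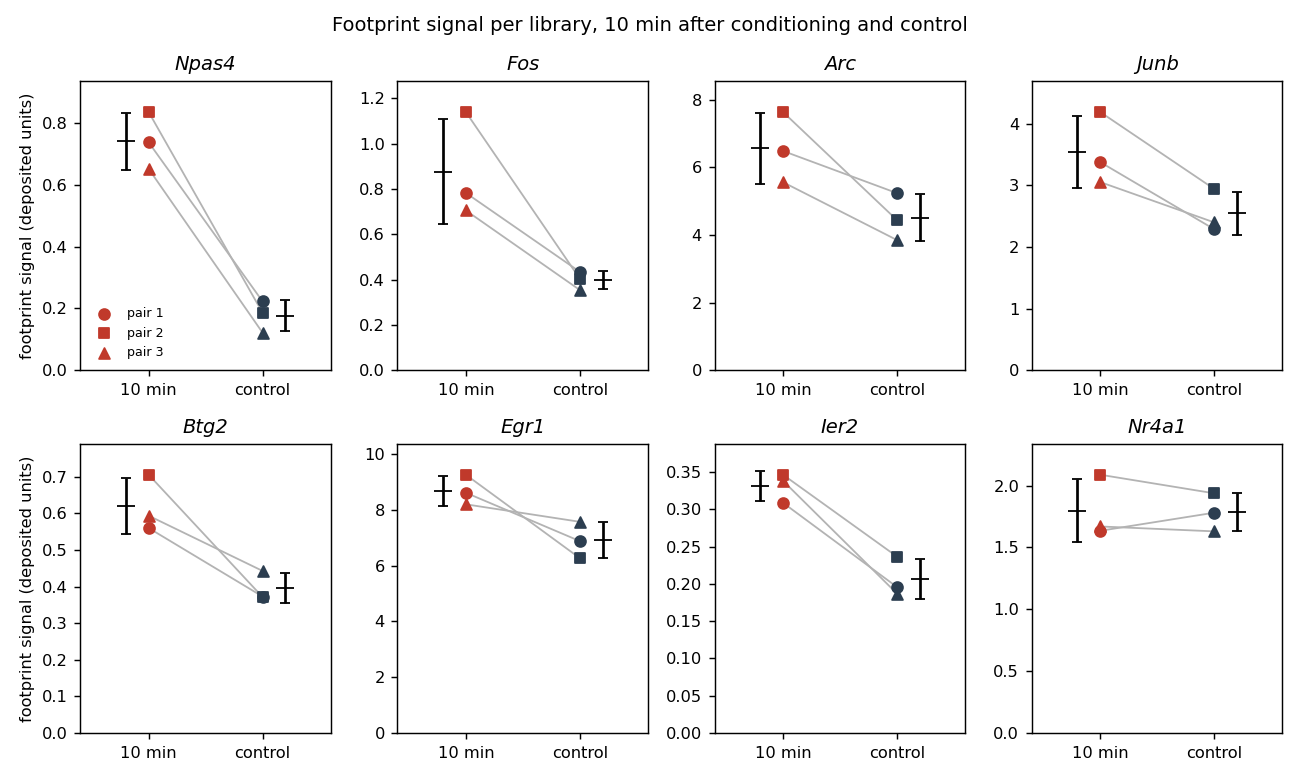
Footprint signal of 8 genes in each library (deposited units, linear axes from 0), 10 min on the left and control on the right, with grey lines joining libraries of the same number and black bars giving the mean and SD (n = 3). The groups do not overlap for Npas4, Fos, Arc, Junb, Btg2, Egr1 and Ier2, of which the first 5 passed the test, and they overlap for Nr4a1.

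Npas4 encodes a neuron-specific transcription factor induced by calcium entry. Its signal was 0.737, 0.835 and 0.651 in the 10 min libraries 1, 2 and 3, against 0.223, 0.186 and 0.121 in the controls 1, 2 and 3. These values rest on 308, 258 and 181 reads at 10 min and on 83, 62 and 37 reads in controls. Every 10 min library was well above every control, and the groups were far from overlapping. The mean signal was 4.20 times that of controls, and the change was 1.62 on the scale of log2(signal + 0.1), with a standard error (SE) of 0.147 and an adjusted p of 9.40e-06 in limma. The added 0.1 makes such log2 values smaller than the log2 ratio of the signals where signals are low. Of all genes, only Npas4 and Fos changed by more than 1.5-fold on this scale.

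Fos encodes the partner of Jun proteins in the AP-1 factor and is a widely used marker of recently active neurons. Its signal was 0.782, 1.14 and 0.705 in the 10 min libraries, against 0.434, 0.404 and 0.354 in the controls. Library 2 was the highest at 10 min, and the groups did not overlap. The change was 0.95 on the log2 scale (SE 0.121, adjusted p = 0.0011, limma) and the mean signal was 2.20 times the control mean.

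Junb, which encodes another AP-1 subunit, had signals of 3.38, 4.19 and 3.05 at 10 min, against 2.29, 2.94 and 2.40 in controls. The lowest 10 min value, of library 3, lay just above the highest control, that of library 2. The log2 change was 0.46 (SE 0.0753, adjusted p = 0.0193, limma), higher in 3 of 3 pairs. The call was lost in 6 of 9 fits that left out a library or a pair, with adjusted p between 0.0515 and 1. These were the fits without the 10 min library 1 or 2, without any one control library, and without all libraries of number 1.

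Among the other transcription factors, Egr1 and Ier2 came closest without passing. Egr1, a zinc finger factor used as a marker of plasticity, had signals of 8.61, 9.26 and 8.20 at 10 min and 6.88, 6.27 and 7.57 in controls. The groups did not overlap, but the log2 difference of 0.33 (SE 0.0699) had an adjusted p of 0.269 in limma; without control library 3 it was 0.42, with an adjusted p of 0.0366. Ier2, an immediate-early nuclear protein, had low signals of 0.309, 0.346 and 0.338 at 10 min and 0.196, 0.237 and 0.187 in controls, again without overlap (log2 0.49, SE 0.108, adjusted p = 0.300, limma).

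The remaining listed factors lay near 0. The Nr4a orphan nuclear receptors had log2 differences of 0.01 (Nr4a1, 95% interval -0.23 to 0.25), -0.00 (Nr4a2, SE 0.0816) and -0.05 (Nr4a3, SE 0.0570). Egr3, another member of the Egr family, was at 0.05 (SE 0.0519), the AP-1 gene Jun at 0.07 (SE 0.0495) and the low-signal Fosb at 0.12 (SE 0.166). In all, 3 of 18 listed members of the transcription factor list were called higher, against 0.0434% of all 11531 genes. The list was chosen with earlier results of these data known, so this count is no independent support. Of its members 12 of 18 were higher (47.8% of all listed genes), and the median log2 difference was 0.038, against -0.004 over all listed genes. That median was 0.002 among the members with a signal of 1 or more (6 of 12 higher). It was -0.003 without all libraries of number 2 (9 of 18 higher) and 0.084 without control library 3 (15 of 18). Jund, Egr2, Egr4, Klf2 and Klf4 were not found by symbol among the genes of the deposited table. Of the 28 members of the transcription factor list 18 were listed, and the rest could not be tested.

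Of the effectors, Arc and Btg2 rose. Arc encodes a synaptic protein that forms capsid-like particles and takes part in the removal of AMPA receptors. Its signal was 6.49, 7.64 and 5.56 in the 10 min libraries, against 5.24, 4.44 and 3.85 in the controls. The lowest 10 min library, number 3, was close to the highest control, number 1, without overlap. The log2 change was 0.53 (SE 0.0834, adjusted p = 0.0142, limma), and the mean signal was 1.46 times that of controls. The call was lost in 6 of 9 fits that left out a library or a pair, with adjusted p between 0.0574 and 0.425. These were the fits without the 10 min library 2 or 3, without the control library 2 or 3, and without all libraries of number 1 or 3.

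Btg2, which encodes an antiproliferative protein that recruits the deadenylase complex, had signals of 0.560, 0.706 and 0.594 at 10 min. Its controls had 0.373, 0.371 and 0.443, so all 10 min libraries were above all controls. The log2 change was 0.54 (SE 0.0942, adjusted p = 0.0359, limma). Btg2 was past the threshold in 1 of 9 fits that left out a library or a pair, that without 10 min library 3, whereas Npas4 and Fos were past it in 9 of 9.

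Dusp1, a phosphatase that turns off MAP kinases, had signals of 0.701, 1.09 and 0.899 at 10 min and 0.710, 0.746 and 0.580 in controls. It was higher in 2 of 3 pairs, and library 1 showed no excess (log2 0.34, SE 0.111, adjusted p = 0.999, limma). Arl4d, a small GTPase, and Gadd45g, a stress-response gene, were higher in 3 of 3 pairs with overlapping groups, at log2 0.34 (SE 0.105) and 0.31 (SE 0.126). Most of the excess of Gadd45g was in pair 3, where the signals were 2.07 at 10 min and 1.16 in the control.

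Several effectors that serve synapses did not differ by more than their error. Bdnf, a neurotrophin, had 4.17, 4.17 and 4.48 at 10 min and 4.23, 4.27 and 4.47 in controls (log2 -0.02, 95% interval -0.15 to 0.12). Homer1, a postsynaptic scaffold, was at log2 0.02 with an interval of -0.09 to 0.13, and Plk2, a kinase that weakens active synapses, at -0.00 with an interval of -0.12 to 0.11. Ptgs2, which encodes the inducible cyclooxygenase, differed by more than its SE without passing the test (log2 0.20, SE 0.0913), and was higher in 3 of 3 pairs. Over the effector list, chosen in the same way, 2 of 27 listed members were called higher, against 0.0434% of all genes. Of its members 18 of 27 were higher (47.8% of all listed genes), with a median of 0.045. The median was 0.021 among members with a signal of 1 or more (11 of 17 higher), 0.016 without control library 1 and 0.083 without control library 2.

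**Figure D2:**
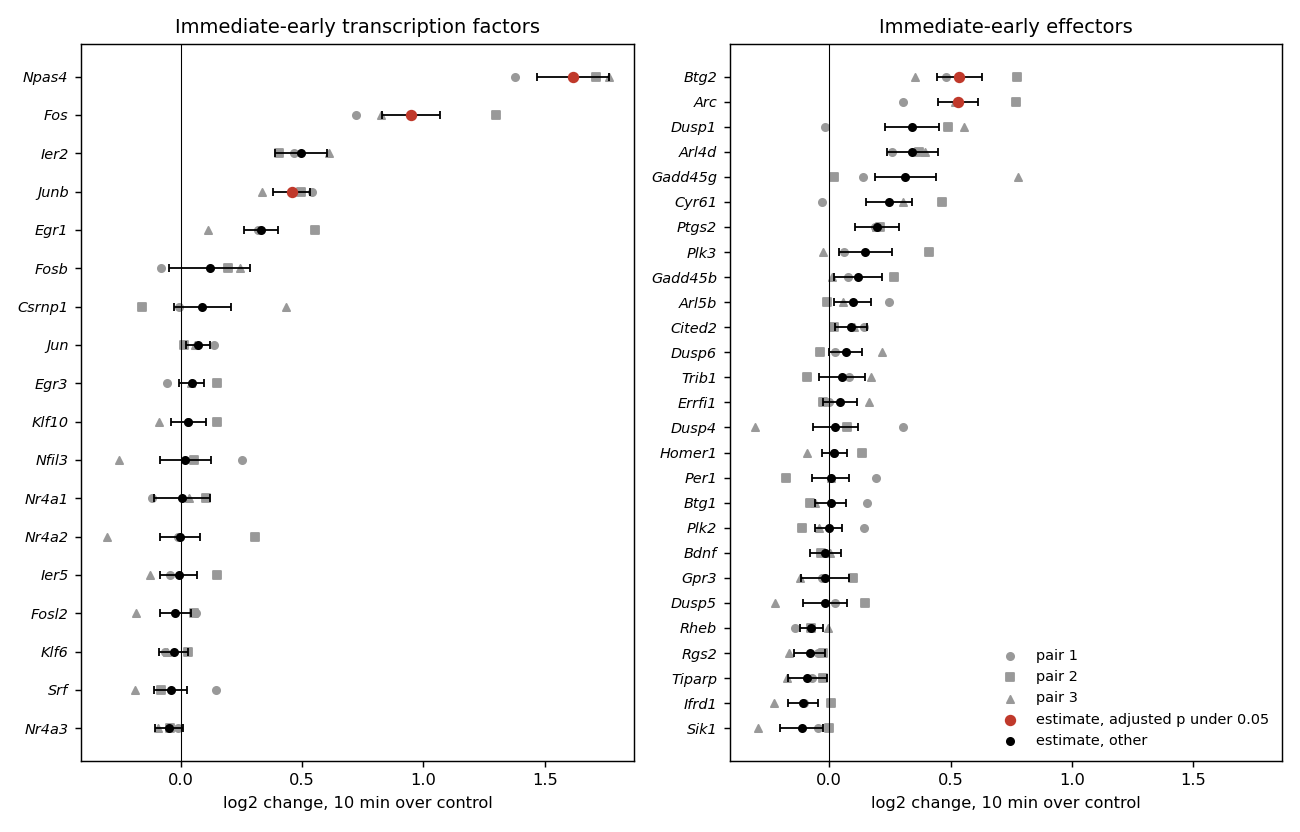
Log2 change of footprints, 10 min over control, of the listed immediate-early transcription factors (18) and effectors (27). Grey symbols are the 3 pairs, dots with bars the limma estimate and its SE, and red dots the 5 genes with an adjusted p under 0.05; most other genes lie within 0.2 of 0.

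The change was narrow against the whole table. The fitted difference of 90.8% of all genes was within 1.1-fold, which held for 95.5% of genes with a signal of 1 or more and for 80.6% of low-signal genes. The median SE was 0.0663 for the first class and 0.1003 for the second, on the log2 scale. Across genes, the differences of pair 1 and pair 2, which share no library, correlated with Pearson r = 0.116, those of pairs 1 and 3 with 0.000126 and those of pairs 2 and 3 with -0.0189. These describe genes within libraries of the same tissue, and genes are not independent replicates. Differences higher in 3 of 3 pairs were found in 11.7% of all genes and lower in 3 of 3 in 13.6%.

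Low-signal genes differed from the rest in how these shares fell. Among them, 9.74% were higher and 17.1% lower in 3 of 3 pairs, while of the 7898 genes with a signal of 1 or more 994 were higher (12.6%) and 949 lower. At an unadjusted p under 0.05, 1.82% of low-signal genes were higher and 3.44% lower, against 1.51% and 1.84% of the other genes. Groups without overlap were found in 2.42% (higher) and 3.55% (lower) of low-signal genes and in 1.29% (higher) and 1.24% (lower) of the others. The median difference was -0.018 in low-signal genes and 0.000 in the others on the log2 scale, and no test compared the classes.

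**Figure D3:**
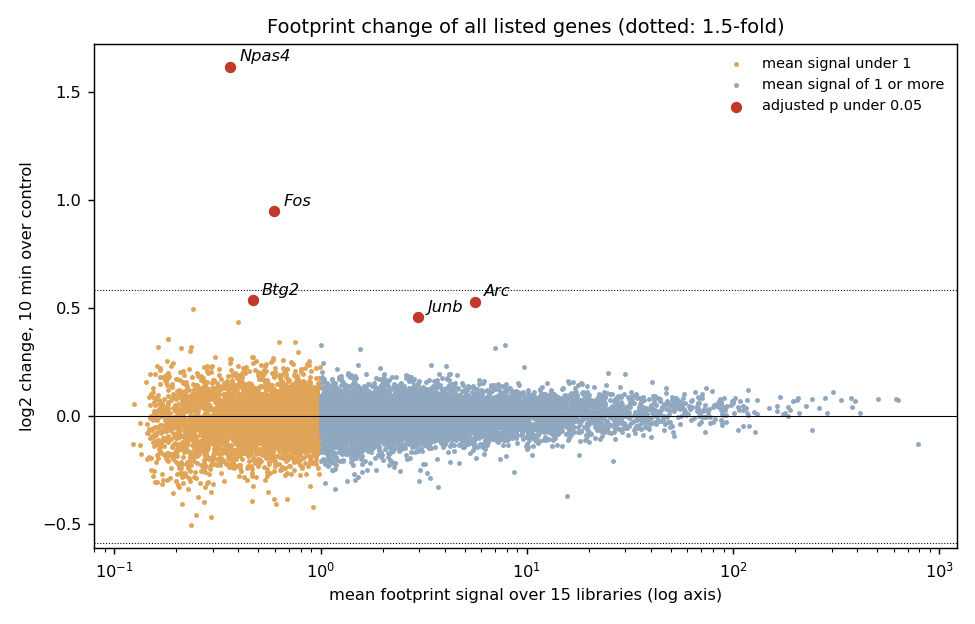
Log2 change of footprints, 10 min over control, against the mean signal over 15 libraries (log axis) for all 11531 genes. The 5 called genes are in red; Npas4 (1.62) and Fos (0.95) lie beyond the dotted lines at 1.5-fold, and low-signal genes (orange) spread more than the others (blue).

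No gene passed as lower over all 15 libraries, in limma on log2 signals or in voom. The smallest adjusted p among lower genes in limma was 0.391, for Nrsn1, a neuron-specific vesicle membrane protein. Its signals were 2.18, 2.87 and 2.88 at 10 min and 2.83, 3.27 and 3.70 in controls, lower in 3 of 3 pairs with overlapping groups (log2 -0.30, SE 0.0674, limma). Mapk6 encodes the atypical kinase ERK3, and it had 1.16, 1.26 and 1.15 at 10 min against 1.499, 1.37 and 1.59 in controls. Its groups did not overlap (log2 -0.30, SE 0.0724, adjusted p = 0.457, limma), a separation in the lower direction seen in 1.97% of genes.

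Dync1h1, the heavy chain of cytoplasmic dynein, had 18.5, 12.5 and 8.61 at 10 min and 20.7, 16.5 and 12.7 in controls. The pairs differed in level more than the times did, and it was lower in 3 of 3 (log2 -0.37, SE 0.0871, adjusted p = 0.457, limma). The other lower genes with the smallest p were Zcchc12, Adcy5, Ptbp1 and Ccdc91 among genes of higher signal, and Col23a1, Rxrg, Ctla2a, Dnah6 and Capsl among low-signal genes, with log2 differences of -0.22 (Ccdc91) to -0.45 (Dnah6). Without the libraries of number 2 in all groups, 8 genes were called lower, among them Dync1h1, Nrsn1 and Mapk6. Without any other library or pair the count was 0.

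Next in p among the higher genes were Krt10, Cebpb, Hbb-bs, Ftl1 and Dbndd2 at a signal of 1 or more, and Ppp1r3g among low-signal genes. Ppp1r3g, a glycogen-targeting subunit of protein phosphatase 1, had 0.388, 0.447 and 0.568 at 10 min and 0.255, 0.383 and 0.318 in controls, without overlap (log2 0.44, SE 0.106, adjusted p = 0.457, limma). Without all libraries of number 2 its difference was 0.57, with an adjusted p of 0.0468. Hbb-bs, a beta globin of red blood cells, had 20.9, 26.6 and 29.5 at 10 min and 19.8, 23.9 and 22.7 in controls, with overlap (log2 0.20, SE 0.0626).

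The medians of gene lists were small and depended on single libraries. Of 43 lists with at least 7 listed genes, the median changed sign in 16 without control library 2 and in 13 without all libraries of number 2. In each of the other omissions of a library or a pair, 3 to 7 lists changed sign, and 22 lists did so in at least one of the 9 fits. The range over these 9 fits is therefore given with the lists below. Of all listed genes 47.8% were higher, and the lists were chosen with earlier results of these data known.

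Among genes that respond to glucocorticoids, the stress hormones released after a shock, none passed the test. Of 19 listed, 17 were higher and 9 were higher in 3 of 3 pairs (47.8% and 11.7% of all listed genes). The median was 0.108, with a range of 0.063 to 0.134 over the 9 fits. Sgk1, a kinase induced by corticosterone, had 8.12, 7.61 and 7.79 at 10 min and 6.23, 7.34 and 5.41 in controls. The groups did not overlap (log2 0.32, SE 0.108, adjusted p = 0.999, limma). Without all libraries of number 2 its difference was 0.45, with an adjusted p of 0.0223. The C/EBP factors Cebpb and Cebpd were at 0.22 (SE 0.0670) and 0.24 (SE 0.0953). The classical hormone targets Tsc22d3 and Fkbp5 were at 0.13 (SE 0.0678) and 0.06 (SE 0.0647), and Per1, also a clock gene, at 0.01 (SE 0.0760). The list median was 0.005 in pair 2, against 0.119 in pair 1 and 0.151 in pair 3.

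The gene lists of the cAMP, MAPK and CaMK cascades held no called member, and the activity of these cascades was not measured. In the cAMP, PKA and CREB list, 11 of 36 listed genes were higher and the median was -0.025 (-0.048 to -0.009 over the 9 fits). Adcy5, an adenylyl cyclase, had 2.84, 2.77 and 2.48 at 10 min and 3.33, 3.30 and 3.02 in controls, with no overlap (log2 -0.25, SE 0.0640, adjusted p = 0.647, limma). Pde4d, which degrades cAMP, was at -0.17 (SE 0.0735). In the MAPK list 8 of 31 were higher, with a median of -0.030 (-0.054 to -0.007). The CaMK and calmodulin list had 12 of 22 higher and a median of 0.001 (-0.018 to 0.006), and ERK feedback genes had 7 of 13 higher and a median of 0.010 (-0.035 to 0.023).

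The machinery of translation held no called gene. Of the ribosomal proteins, 36 of 44 of the large subunit were higher, with a median of 0.052 (0.031 to 0.080 over the 9 fits). Of the small subunit, 28 of 33 were higher, with a median of 0.042, but 18 of 33 were higher without 10 min library 3 (median 0.007) and 17 of 33 without all libraries of number 3 (0.003). Pair 1 was below 0 in both lists (-0.020 and -0.029). Rps26 had the smallest p among them (log2 0.24, SE 0.0781, adjusted p = 0.999, limma). Genes with near-identical copies, such as these, are uncertain because the sources used here do not say how reads that match several genes were counted.

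Initiation factors had a median of -0.021 with 18 of 46 higher, and without control library 2 it was 0.013 with 30 of 46 higher. Elongation and termination factors were at 0.003 (7 of 13; -0.016 to 0.017 over the 9 fits), the mTOR pathway at 0.016 (19 of 31; 0.003 to 0.042) and translational repressors at 0.006 (16 of 31; -0.024 to 0.014). Proteasome subunits had a median of -0.044 with 9 of 43 higher, a direction that turned without control library 2, where the median was 0.011 and 28 of 43 were higher. Without all libraries of number 2 the proteasome median was -0.011, with 19 of 43 higher. Heat shock proteins and chaperones had a median of -0.041 (3 of 17 higher), with a range of -0.086 to -0.028.

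Synaptic genes held no call. NMDA receptor genes had a median of 0.071 (6 of 7 higher), AMPA and kainate receptor genes 0.009 (8 of 11), metabotropic glutamate receptor genes 0.040 (6 of 7) and GABA receptor and inhibitory synapse genes 0.035 (16 of 22). In each of these 4 receptor lists the median was above 0 in pairs 1 and 2 and below 0 in pair 3. Without control library 2 the medians were 0.010, -0.029, -0.062 and -0.024 in the same order, so that 3 of the 4 changed sign. Postsynaptic scaffold genes had a median of -0.037 (7 of 25; -0.046 to -0.009 over the 9 fits), and synaptic vesicle and SNARE genes 0.006 (21 of 40; -0.013 to 0.024).

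The remaining groups of genes held no call either. Late-response genes, which follow the immediate-early factors, had a median of 0.022 (10 of 16 higher), which was -0.043 without control library 2 (4 of 16). Circadian clock genes were at -0.003 (10 of 20; -0.046 to 0.027 over the 9 fits) and genes of the integrated stress response at -0.018 (8 of 20; -0.056 to -0.009). Potassium channels were at 0.025 (38 of 56; 0.002 to 0.072), sodium and calcium channels at -0.002 (13 of 26; -0.067 to 0.061), and cholesterol synthesis at 0.005 (12 of 22; -0.020 to 0.036). Subunits of respiratory complex I were at 0.004 (22 of 36; -0.031 to 0.033) and those of complexes II to V at -0.013 (15 of 40; -0.051 to 0.015). Replication-type histones were at -0.016 (3 of 10; -0.044 to -0.014). Genes commonly used as internal controls were at -0.043 (5 of 15 higher), and without control library 2 their median was 0.001 (8 of 15).

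Markers of cell types bear on the makeup of each sample, and in bulk tissue fewer cells of a type cannot be told apart from less RNA per cell. Of 24 listed markers of endothelial cells and pericytes, 12 were low-signal genes. In this list 8 markers were higher, 8 were lower in 3 of 3 pairs (13.6% of all listed genes), and the median was -0.051. It was -0.109 without 10 min library 1 and -0.015 without control library 1. Cldn5, a tight junction protein of brain vessels, had 1.08, 0.922 and 1.07 at 10 min and 1.39, 1.40 and 1.18 in controls. Its groups did not overlap (log2 -0.34, SE 0.0835, adjusted p = 0.536, limma). Pecam1, an endothelial adhesion molecule, was at -0.40 (SE 0.114), and Eng, a TGF-beta coreceptor, at -0.26 (SE 0.0776). In the other direction, Kcnj8, a potassium channel of pericytes named after its values were seen, was at 0.36 (SE 0.121) with every 10 min library above every control. The summed signal of the list in libraries 1, 2 and 3 was 158, 144 and 127 at 10 min and 168, 140 and 126 in controls, so it was higher at 10 min in pairs 2 and 3.

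Ependymal markers were lower in 9 of 9, with a median of -0.126, and their pair medians were -0.212, -0.018 and -0.068. All 9 were low-signal genes, a class in which 57.7% of genes were lower. Without 10 min library 1 the ependymal median was -0.028 with 2 of 9 higher, and with 1 in place of 0.1 added to the signal it was -0.060. Their summed signal was 4.49 to 6.23 at 10 min and 4.98 to 6.24 in controls. Choroid plexus markers were higher in 1 of 17 (median -0.117), and their pairs ran -0.419, -0.102 and 0.129. Without 10 min library 1, or without control library 2, 10 of 17 were higher, with medians of 0.032 and 0.027. The summed choroid plexus signal was 232 to 1742 at 10 min and 185 to 2123 in controls.

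Markers of CA1 pyramidal cells had a median of 0.091 (9 of 12 higher), which was 0.026 without control library 2. Those of dentate granule cells were at 0.055 (11 of 14), and at 0.009 without control library 1. Astrocyte markers were at 0.065 with 20 of 22 higher, and without control library 2 at 0.031 with 14 of 22 higher. Oligodendrocyte markers were at 0.074 with 20 of 24 higher, and without control library 2 at 0.012 with 14 of 24 higher. The oligodendrocyte pair medians were 0.054, 0.203 and -0.011. Microglia markers were at 0.066 with 20 of 22 higher, and without control library 2 at 0.002 with 13 of 22 higher. CA3 and CA2 pyramidal markers were at 0.019 (6 of 11 higher; -0.029 to 0.052 over the 9 fits) and interneuron markers at -0.012 (8 of 17; -0.051 to 0.022). Oligodendrocyte precursor markers were at 0.022 (6 of 9; -0.038 to 0.056), and markers of striatum, thalamus and cortex, which border the hippocampus or lie near it, at -0.011 (7 of 17; -0.045 to -0.007). None of these markers passed the test, no listed gene was at 0 reads, and the part of sample makeup in the 5 calls was not tested.

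**Figure D4:**
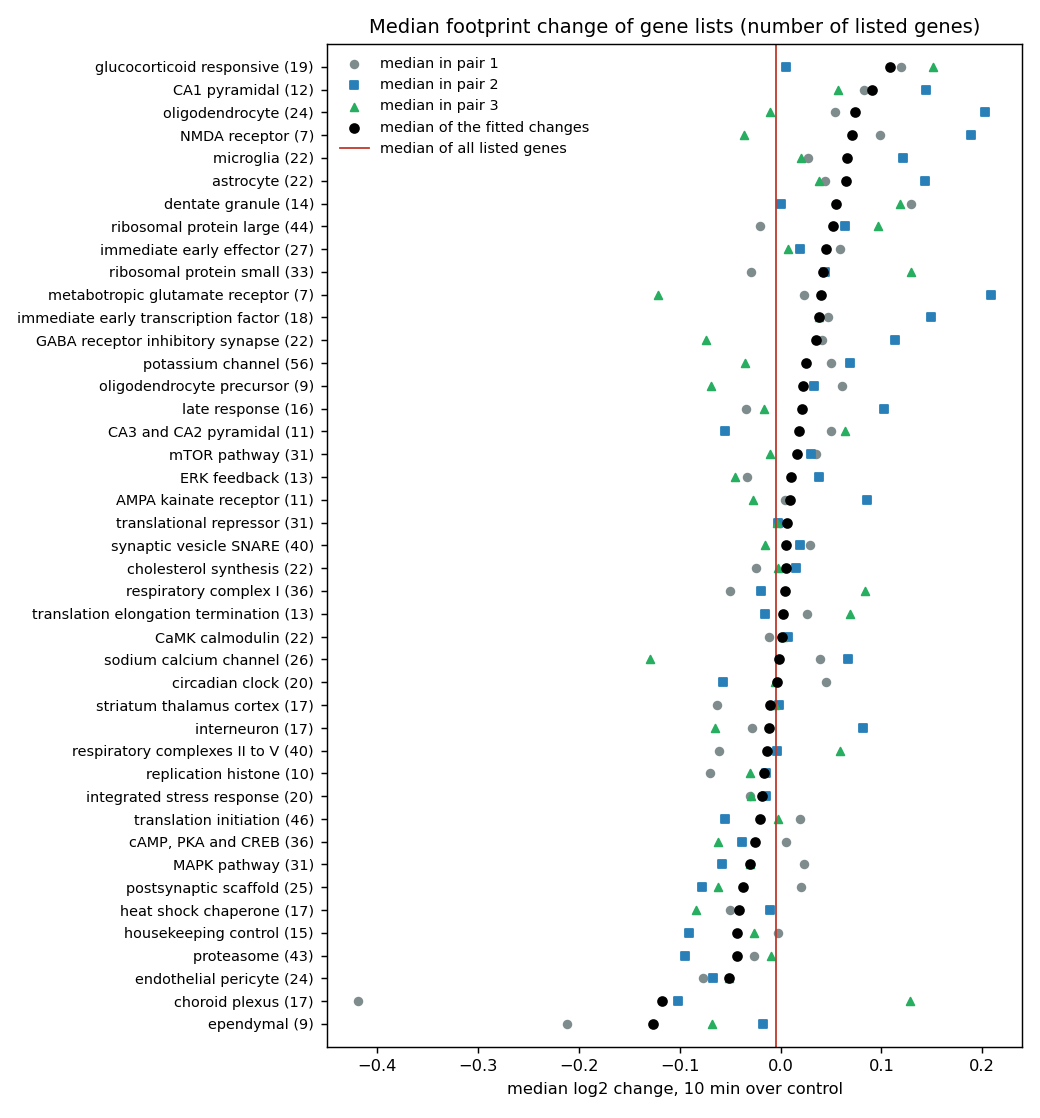
Median log2 change of footprints, 10 min over control, for each gene list with at least 7 listed genes (their number in brackets). Black dots are medians of the fitted changes, symbols the medians in each pair, and the red line the median of all genes (-0.004); most medians lie within 0.1 of 0, the glucocorticoid list is at 0.108 and the ependymal list at -0.126, and the pairs of many lists fall on both sides of 0.

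RNA of the same groups gave a second readout. RNA of 5 genes was called higher at 10 min, among them Npas4, Junb, Arc and Fos, and that of none was called lower (0.0434% and 0.0% of 11531, limma). An unadjusted p under 0.05 was found for 10.1% of genes. Npas4 RNA had a signal of 0.577, 0.639 and 0.442 at 10 min and 0.144, 0.168 and 0.0825 in controls, with no overlap (log2 1.502, SE 0.186, adjusted p = 9.82e-05). Fos RNA was higher by 0.68 (SE 0.117, adjusted p = 0.0089, limma), Junb RNA by 0.52 (SE 0.0709, adjusted p = 0.000309) and Arc RNA by 0.45 (SE 0.0679, adjusted p = 0.00128). The RNA difference of Btg2 was 0.32 (SE 0.0914) and did not pass (adjusted p = 0.323, limma). Npas4 and Junb RNA were past the threshold in 9 of 9 fits that left out a library or a pair; the call of Arc was lost in 2 of 9, without the 10 min library 2 and without all libraries of number 2. That of Fos was lost in 6 of 9, which were those without the 10 min library 1 or 2, without the control library 2 or 3, and without all libraries of number 1 or 2. Without the replicate block no RNA passed.

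The median gene differed by 0.034 in RNA, so RNA differences of that size are the shift of the table. With each RNA library centred on its median gene, 4 genes were higher and 1, Pink1, a kinase of mitochondrial quality control, was lower.

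The footprint change relative to the RNA change, called the change in translational efficiency, passed the test for no gene in either direction (0.0%), while 5.11% of genes had an unadjusted p under 0.05 (limma). For Npas4 this difference was 0.11 with a 95% interval of -0.44 to 0.67, for Fos 0.27 (-0.09 to 0.63), for Arc 0.08 (-0.16 to 0.32), for Junb -0.06 (-0.28 to 0.15) and for Btg2 0.21 (-0.07 to 0.50). These intervals allow a change in either direction for each gene. Mapk6 had the smallest p of all genes in this test, at -0.41 (-0.58 to -0.24, adjusted p = 0.387, limma). Its RNA was 4.89, 4.62 and 4.38 at 10 min and 4.38, 4.14 and 4.31 in controls, with overlap. Nrsn1 was at -0.38 (-0.57 to -0.19, adjusted p = 0.423).

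The place of 10 min in the time course was tested directly against 5 and 30 min, since tests of each time against control share the control libraries. Against 5 min, 2 genes were higher and none lower at 10 min (0.0173% and 0.0%, limma; 3.5% of genes had an unadjusted p under 0.05). Npas4 averaged 0.741 ± 0.092 at 10 min and 0.229 ± 0.066 at 5 min (SD, n = 3 each), a log2 difference of 1.37 (SE 0.147, adjusted p = 0.000153, limma). Fos averaged 0.875 ± 0.232 at 10 min and 0.418 ± 0.068 at 5 min, a difference of 0.90 (SE 0.121, adjusted p = 0.00259, limma). The call of Fos was lost without the 10 min library 2, without the 5 min library 1 and without all libraries of number 1. Arc, Junb and Btg2 had differences of 0.44, 0.32 and 0.45 from 5 min that did not pass (adjusted p = 0.133, 0.916 and 0.328, limma).

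Against 30 min, Nr4a1 was lower at 10 min and no gene was higher (0.00867% and 0.0%, limma; 3.16% of genes had an unadjusted p under 0.05). Its mean signal was 1.797 ± 0.252 at 10 min and 3.15 ± 0.13 at 30 min (SD, n = 3 each), a log2 difference of -0.78 (SE 0.114, adjusted p = 0.0155, limma). The call was lost in 7 of 12 fits that left out a library or a pair, which were those without any one 10 min library, without the 30 min library 1 or 3, and without all libraries of number 1 or 3. Npas4 averaged 0.741 ± 0.092 at 10 min and 0.437 ± 0.061 at 30 min, and the difference of 0.65 did not pass (adjusted p = 0.818, limma). Without the replicate block no gene passed against 5 min or against 30 min. Fos, Arc and Junb had mean signals of 0.875, 6.56 and 3.54 at 10 min and of 1.06, 7.94 and 3.77 at 30 min, with log2 differences of -0.27, -0.28 and -0.10 that did not pass (adjusted p = 0.999 each, limma).

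**Figure D5:**
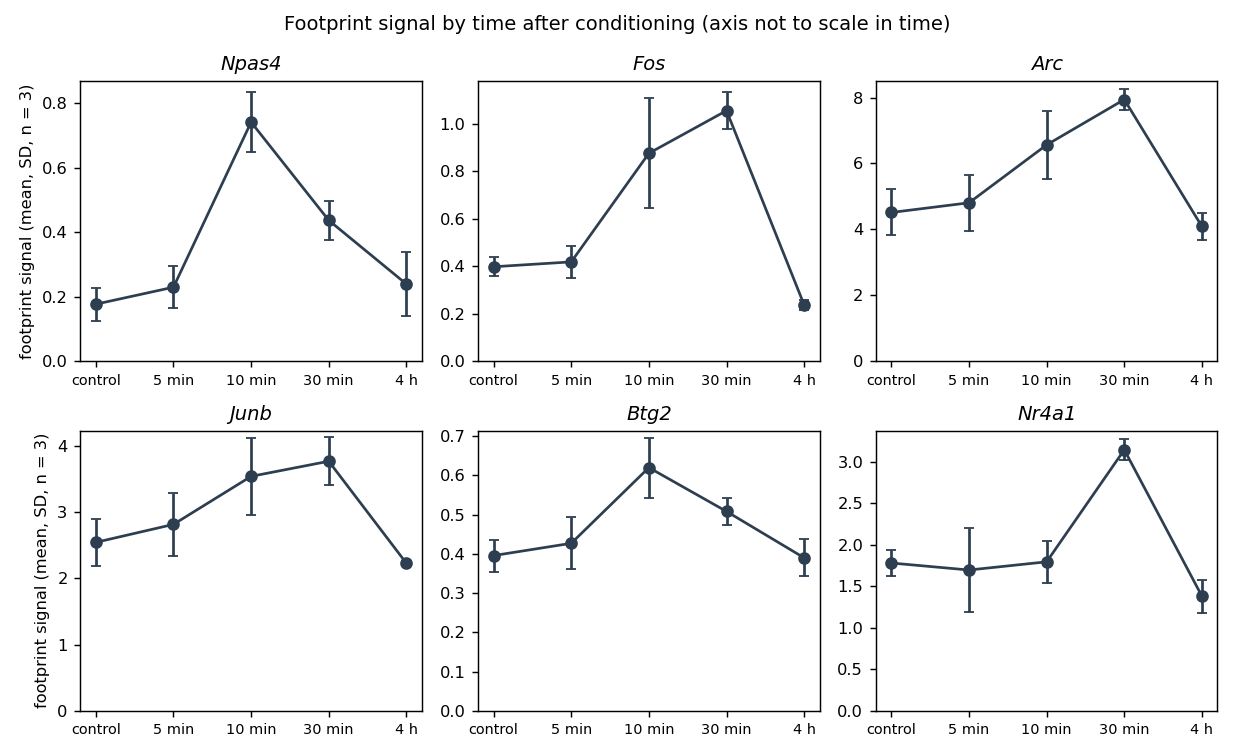
Mean footprint signal and SD (n = 3) of the 5 genes called at 10 min and of Nr4a1 in controls and at 5, 10 and 30 min and 4 h, with time not to scale. Npas4 is highest at 10 min (0.741), Nr4a1 is at 1.797 at 10 min and 3.15 at 30 min, and Fos, Arc and Junb have their highest means at 30 min.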

How the data were processed

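Ribosome-protected fragments (RPF) and RNA of mouse hippocampus were sequenced in 5 groups of 3 replicates; 15 libraries of each kind were used. Per the submitters' processing notes, CASAVA 1.8.2, Bowtie 1.1.1 and the genome mm9 were used; the sources used here do not say how reads were counted, by strand or between near-identical genes. The authors deposited a signal per gene whose unit the file headers do not name. Each signal times 1 whole number per library lay within 0.001 of a whole number, taken as reads. The deposited means and fold changes were not used. Tissue RPF libraries held 14240563 to 30480009 reads on listed genes and RNA libraries 16814796 to 39683060; replicates differed by more than sampling noise.

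The main test was limma 3.58.1 (R 4.3.3; lmFit, eBayes with trend) on log2(signal + 0.1), 2-sided, over all 15 libraries of a kind, with the replicate number as a block and Benjamini-Hochberg adjustment over all 11531 genes (threshold 0.05). Changes on this scale understate those of low genes: 0.1 equals 27.8 to 41.8 reads in the 6 libraries. Translational efficiency was the interaction of time and kind of library over 30 libraries. No filter was applied to the genes that the deposited tables list, and genes of mean signal under 1 are described apart. The block follows the replicate numbers in the titles. Deviations from the group means correlated across genes at 0.817, 0.644 and 0.737 between RPF libraries of the same number (10 min and control). Between different numbers they correlated at -0.651 to -0.112, in part because deviations cancel out within a group. Alternatives were no block, other pseudocounts, a filter, 2 groups alone, median centring, robust eBayes, voom on reads scaled by library totals, and leaving out libraries or pairs.

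Genes named per direction were those past the threshold, filled up to 8 (5 for low signal) by the smallest p, the 3 smallest p of each list (of which the text gives a selection), up to 5 called genes of each other comparison, and a panel of activity and stress genes. One gene called in RNA is not reported here. The comparison, lists and panel were chosen with earlier results of these data known. Promoter letters were searched on both strands of RefSeq windows.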

Additional observations from a re-analysis of the deposited data

Results flagged for a closer look

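For 3 genes the effect at 10 min differed from that at a neighbouring time by a direct test of the difference (limma with the replicate block, adjusted over all 11531 genes). The footprint change of Npas4 at 10 min exceeded that at 5 min by 1.366 on the log2 scale. That of Fos exceeded it by 0.8956. That of Nr4a1 was below the change at 30 min, with a difference of -0.7833. Groups of 3 are too small for a test of single outlying libraries.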

How the results depend on the processing

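Against control, 5 genes were called higher and 0 lower at 10 min; the count of higher genes was 1 without the replicate block, 0 with a mean signal of at least 1 (also with pseudocount 1, and with or without the block), and 11 with only the groups compared, a fit that also called 10 lower. Against 5 min, 2 genes were higher and none lower at 10 min; these counts were 0 higher without the block and under each filter, and 8 higher and 6 lower with only the groups compared. Against 30 min, 0 were higher and 1 lower; 1 was higher with pseudocount 1 and 1 with only the groups compared, where 2 were lower, and 0 were lower without the block, with or without the filter. In RNA, 5 were higher and 0 lower; 0 were higher without the block, 2 with the filter and 0 with the filter and no block, and 2 were lower with only the groups compared, 1 with median centring and 1 with voom. No gene was called for translational efficiency in any fit. Leaving out single libraries or pairs gave 2 to 7 higher and 0 to 8 lower against control, 1 to 3 higher and 0 to 1 lower against 5 min, 0 to 4 lower against 30 min, and 2 to 5 higher in RNA. The cause of these differences was not tested. The filter removes Npas4, Fos and Btg2 but keeps Arc and Junb, which did not pass under it, and some of the fits used fewer libraries. The filter without the block and the omission of 5 and 30 min libraries were chosen after seeing the data. Other pseudocounts, median centring, robust eBayes and voom called the same 5 genes against control. Among footprint differences from control, none of the 5 called genes changed its sign in these fits, while 17 of 101 named genes did. Signs of single genes were not followed in the other comparisons. edgeR and DESeq2 were not run. The deposited values are not counts, and voom was run on the reads taken from them, with library totals in place of TMM. At 37 to 83 reads, Npas4 in controls is the most depth-limited value of the called genes.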
